A study of Mus musculus with 15 samples.

Results

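GPB+ cells are a population sorted from the V-SVZ, the ventricular-subventricular neural stem cell niche along the lateral ventricles of the mouse brain, and CTX cells are astrocytes of the cortex. Both were sorted by flow cytometry from mice of the strain hGFAP::GFP. In these a human GFAP promoter drives GFP in astrocytes and in neural stem cells. Both groups were thus selected for GFP, and the purity of the sorts was not tested here. GPB+ cells were GFP-positive and PDGFRβ-positive and lacked CD133, EGFR and CD24, while for CTX cells the deposited description gives GFP alone. The comparison took the 3 GPB+ and the 3 CTX libraries by their labels, 6 of the 15 libraries of the series. The filter on low counts was applied over all 15 libraries and passed 16302 genes, all of which are covered. With the 6 libraries alone it passed 14476. Males and females were pooled in every library, no treatment or further allele is given, and the age of the mice is not given in the sources used here. Whether the replicates are separate animals is not stated in the labels. The p-values therefore rest on the spread among libraries only, which may be technical. That spread was estimated from all 15 libraries, the other V-SVZ populations included. In sorted bulk samples, fewer cells of a type and less RNA per cell cannot be told apart.

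Astrocytes clear glutamate and potassium from the extracellular space, store glycogen, and export lactate and cholesterol to neurons. Stem cells of the V-SVZ keep many of these glial properties and are also held in a quiescent state by matrix, Notch, BMP and Wnt signals of the niche. Cortex and lateral ventricle wall derive from different parts of the embryonic forebrain, and transcription factors that pattern the embryo can remain expressed in the glia of each region. Imprinted genes, which are expressed from a single parental allele, include growth regulators that are active in neural stem cells.

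Libraries held 13802947 to 24985372 counts in CTX and 15879880 to 23859826 in GPB+, and 3 counts corresponded to 0.126 to 0.23 CPM, the count scaled to the effective library size. The astrocyte label was checked against 28 astrocyte markers, whose summed level was 96000 to 123000 CPM in CTX and 111000 to 140000 CPM in GPB+. Of these, 3 were higher and 1 lower in GPB+. Slc1a3, the glutamate transporter GLAST, differed by a log2 fold change of -0.01 ± 0.16 (SE) with an edgeR adjusted p of 0.992. Of the 3 genes proposed as markers of GPB+, Thbs4 and Crym were higher in GPB+ than in CTX, whereas Igfbp2 was nearly absent from GPB+ and high in CTX. These 3 belong to a list of 24 markers of quiescent V-SVZ stem cells, which went both ways. The list was drawn up with earlier results of these data known, so its share of calls is no independent measure. Of the 24, 7 were higher (29.2%, against 4.04% of all genes tested) and 6 lower (25%, against 2.7%), with a median log2 fold change of 0.02. Of the genes behind the sort, Egfr differed by 0.02 ± 0.21 (adjusted p = 0.979), Pdgfrb by 0.97 ± 0.35 (adjusted p = 0.118) and Prom1, which encodes CD133, by -0.98 ± 0.29 (adjusted p = 0.052), all as edgeR log2 fold changes. Gfap rose by 1.65 ± 0.4 (edgeR adjusted p = 0.0201), a call that was lost without CTX replicate 3 (adjusted p = 0.0984), without GPB+ replicate 2 (0.0693) and without GPB+ replicate 3 (0.0589). Cd24a, the gene of CD24, was at a mean of 0.0419 CPM in CTX and 1.13 CPM in GPB+, with an edgeR log2 fold change of 4.2 ± 1.08 (adjusted p = 0.0253) that did not pass without any 1 of the CTX libraries (adjusted p of 0.0985, 0.0881 and 0.0612), without GPB+ replicate 3 (0.212) or in limma on log2(FPKM + 1) (0.315). The fold change was 7.55 without CTX replicate 3 and 2.49 without GPB+ replicate 3.

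In the comparison of GPB+ with CTX, 658 of 16302 genes (4.04%) were higher in GPB+ and 440 (2.7%) were lower, or 6.74% in either direction, at an adjusted p under 0.05 (edgeR quasi-likelihood test, Benjamini-Hochberg adjustment over all genes tested). More than a 2-fold change was seen in 520 of the higher and 302 of the lower genes. The 3 libraries of each group did not overlap for 634 of the higher and 438 of the lower genes. Over all genes tested, called or not, 12% had all GPB+ libraries above all CTX libraries and 13.4% had them below. These counts depended on the number of libraries: they were 441 higher and 217 lower without CTX replicate 1, 433 and 280 without CTX replicate 2, and 368 and 219 without CTX replicate 3. Without a GPB+ library they were 603 and 291 (replicate 1), 489 and 280 (replicate 2), and 508 and 256 (replicate 3). The balance of directions depended on the fit: the 6 libraries fitted alone gave 553 higher and 521 lower, and limma on the authors' FPKM values (scaled to transcript length and depth), as log2(FPKM + 1), gave 519 higher and 711 lower. The values that follow name genes by rules given with the processing, and most genes outside those rules are marked as chosen after their values were seen. C4a, Zic1, Snrpn, Tyrobp, Trem2 and Mrc1 also lie outside the rules and are not marked where they appear.

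**Figure D1:**
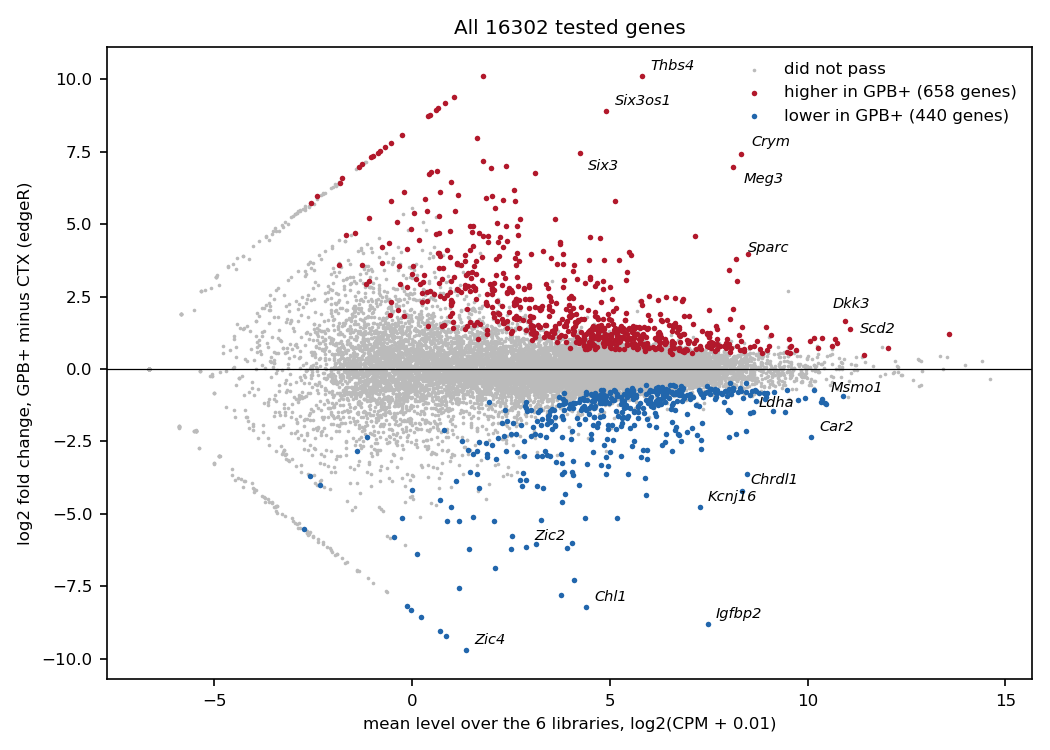
Each point is 1 of the 16302 genes tested, with its mean level over the 6 libraries on the horizontal axis, as log2(CPM + 0.01), and its edgeR log2 fold change, GPB+ minus CTX, on the vertical axis. Red points are the 658 genes higher in GPB+ and blue points the 440 lower. The straight arms at the left are genes at 0 in all libraries of 1 group, whose fitted fold change is no measure of size.

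The largest rise was that of Thbs4, which encodes thrombospondin 4, a secreted matrix glycoprotein (chr13:92751586-92794818, GRCm38.p6). Its level was 0, 0 and 0.209 CPM in CTX replicates 1, 2 and 3 and 64, 144 and 130 CPM in GPB+ replicates 1, 2 and 3. The groups did not overlap, and 2 of the 3 CTX libraries held no count at all. The log2 fold change was 10.11 ± 0.63 (edgeR adjusted p = 4.88e-08) and 14.13 without CTX replicate 3, the only CTX library with counts. Crym, which encodes mu-crystallin, a cytosolic protein that binds thyroid hormone, was at 6.94, 2.3 and 2.05 CPM in CTX and at 645, 639 and 607 CPM in GPB+. Its log2 fold change was 7.41 ± 0.61 (edgeR adjusted p = 1.15e-06), and 8.18 without CTX replicate 1, the highest of the CTX libraries. In the other V-SVZ populations the mean level of Crym was 182 CPM in GCPB+, 44.4 CPM in GCEPB+ and 3.42 CPM in GCEPB-.

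Igfbp2, a secreted protein that binds insulin-like growth factors, gave the largest fall. Its level was 353, 292 and 417 CPM in the CTX libraries and 0.802, 0.144 and 1.24 CPM in the GPB+ libraries. The lowest CTX library stood far above the highest GPB+ library, and the log2 fold change was -8.81 ± 0.54 (edgeR adjusted p = 4.88e-08), with a range of -9.4 to -8.42 when any of the 6 libraries was left out. Its neighbour Igfbp5, a second binding protein of the same family, went the other way, from 10, 10.1 and 6.87 CPM in CTX to 47.1, 101 and 79 CPM in GPB+, a log2 fold change of 3.08 ± 0.36 (edgeR adjusted p = 5.76e-05). The genes lie 5590 bases apart on chromosome 1, Igfbp2 on the plus strand at chr1:72824480-72852474 and Igfbp5 on the minus strand at chr1:72858065-72874865 (GRCm38.p6), with opposite directions of change.

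Other large rises included Six3 and its antisense neighbour Six3os1, Meg3, Mn1, Pmepa1, C4b, Bgn and Slc6a6. Mn1, a transcriptional coregulator, rose from 1.29, 1.84 and 0.712 CPM to 80.9, 51.5 and 74 CPM, a log2 fold change of 5.81 ± 0.34 (edgeR adjusted p = 4.88e-08). Pmepa1, a membrane inhibitor of TGF-beta signalling that is itself induced by that pathway, rose from 0.501, 0.768 and 0.67 CPM to 34.5, 18.2 and 18.5 CPM, a change of 5.18 ± 0.39 (adjusted p = 4.73e-07). Neither gene had overlapping groups, and the range over left-out libraries was 5.46 to 6.16 for Mn1 and 4.81 to 5.35 for Pmepa1. C4b, complement component 4, was at 10.8, 20.6 and 3.18 CPM in CTX and at 205, 375 and 245 CPM in GPB+, with a log2 fold change of 4.6 ± 0.62 (edgeR adjusted p = 0.000206), and 5.33 without CTX replicate 2. The near-identical C4a lies 65.2 kb away, and counts of both are uncertain because reads could be split between them.

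Among the other large falls were membrane and adhesion genes. Kcnj16, an inwardly rectifying potassium channel subunit of astrocytes, fell from 292, 321 and 279 CPM to 10.3, 5.33 and 17.1 CPM, a log2 fold change of -4.76 ± 0.48 (edgeR adjusted p = 1.14e-05). Cntnap2, a neurexin-related adhesion protein, fell from 82.7, 49.6 and 79.2 CPM to 0.802, 2.09 and 3.09 CPM, a change of -5.14 ± 0.54 (adjusted p = 1.55e-05). Greb1, first known as an oestrogen-induced gene, fell from 32.5, 23.4 and 45.1 CPM to 0.15, 0.216 and 0.265 CPM, a change of -7.27 ± 0.68 (adjusted p = 5.4e-06). All 3 genes had groups far apart. Chl1, an adhesion molecule of the L1 family, was at 26.8, 33.2 and 65.6 CPM in CTX and had counts in only 1 GPB+ library (0.353 CPM in replicate 3). Its log2 fold change was -8.21 ± 1.34 (edgeR adjusted p = 0.00115), -7.63 without GPB+ replicate 1 and -12.73 without GPB+ replicate 3. Cyp27a1, a sterol hydroxylase, shows how far 1 library can set a value near 0: it was at 41.9, 37.2 and 42.6 CPM in CTX and at 0, 3.67 and 0 CPM in GPB+. Its log2 fold change of -5.14 ± 1.24 (edgeR adjusted p = 0.0218) became -12.71 without GPB+ replicate 2 and did not pass without CTX replicate 1 (adjusted p = 0.0679), replicate 2 (0.0558) or replicate 3 (0.0667).

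**Figure D2:**
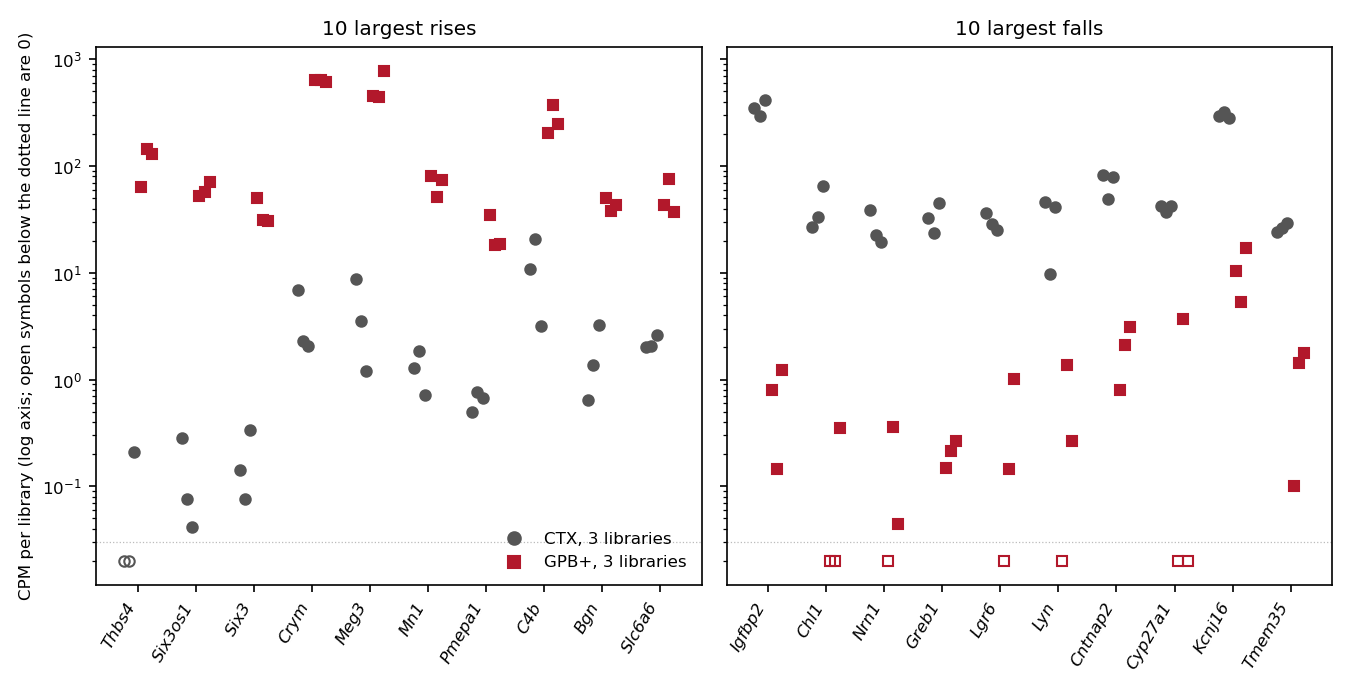
Levels in CPM (log axis) of the 10 largest rises, at the left, and the 10 largest falls, at the right, with a point for each library: grey circles are the 3 CTX libraries and red squares the 3 GPB+ libraries. Open symbols below the dotted line are libraries with 0 counts. By the rule that chose them the groups do not overlap for these 20 genes, and many genes are at or near 0 in the lower group.

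Genes were then grouped in 87 families by symbol, in 4 classes: secreted, surface, metabolic and regulatory. The families held 2614 tested genes, of which 302 were called. Among the 81 families with at least 10 tested members, the share of members called was read against the 4.04% higher and 2.7% lower over all genes. Shares far above it were 41.2% higher for a family of Dlx, Gsx, Nkx, Lhx and further factors and 28.6% higher for imprinted genes. The called members of the first family held no Nkx or Lhx gene. Of TALE, Hox and POU factors 27.8% were higher. In the other direction, 42.9% of genes of cholesterol synthesis and 27.6% of AP-1 and immediate early genes were lower. Of nuclear factor I, GLI and ZIC factors 26.7% were lower. No set test was run, so these counts are descriptions of the lists. Every count of called members given below, for families and for cell type lists, is to be read beside the same 4.04% and 2.7%.

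**Figure D3:**
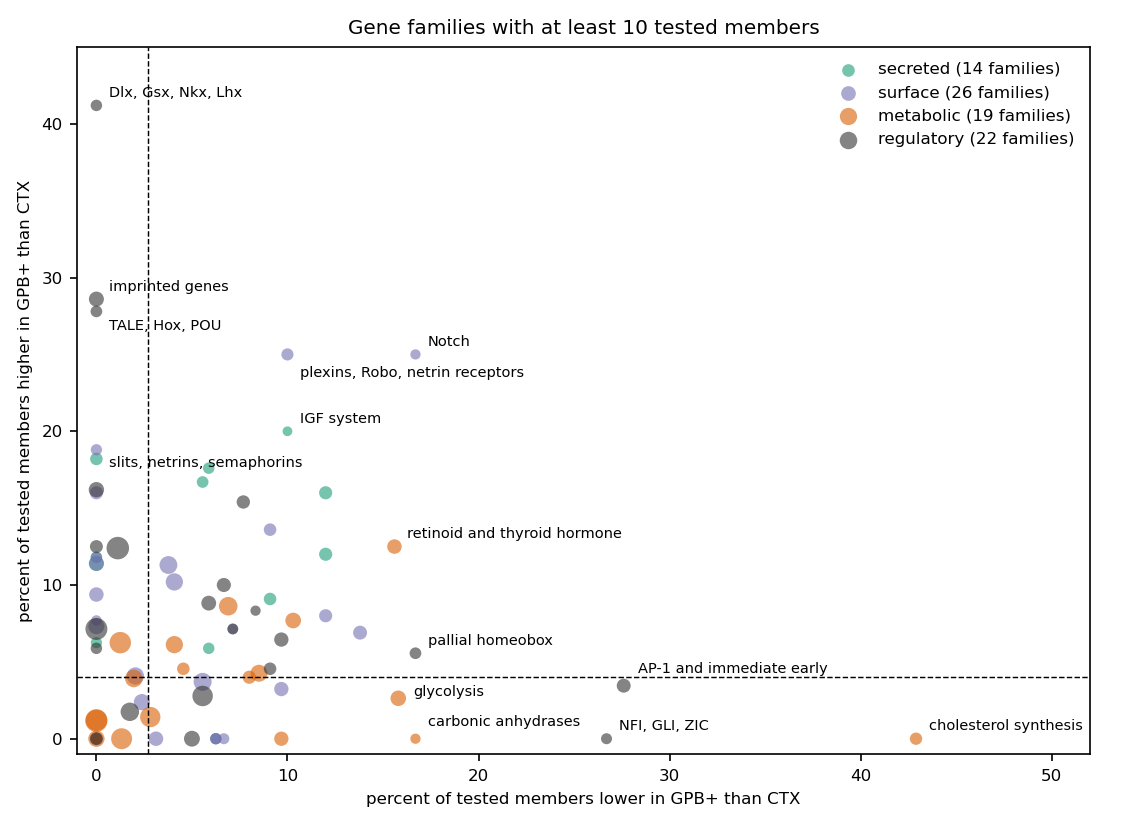
Each point is a family with at least 10 tested members, with the percent of its members lower in GPB+ than in CTX on the horizontal axis and the percent higher on the vertical axis. Point size grows with the number of members tested, and dashed lines mark the shares over all genes, 2.7% lower and 4.04% higher. Cholesterol synthesis lies far to the right with no member higher. The family of Dlx, Gsx, Nkx, Lhx and further factors and the imprinted genes lie high with no member lower.

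Genes of secreted matrix proteins were called in both directions. Of 25 small leucine-rich proteoglycans and elastic fibre proteins tested, 4 were higher and 3 lower, with a median log2 fold change of 0. Bgn, which encodes the proteoglycan biglycan, was at 0.644, 1.38 and 3.22 CPM in CTX and at 50.4, 37.9 and 42.7 CPM in GPB+, a log2 fold change of 4.56 ± 0.4 (edgeR adjusted p = 2.54e-06) that became 5.43 without CTX replicate 3. Mfap2, a microfibril protein, rose from 6.51, 4.15 and 7.58 CPM to 60.3, 52.4 and 39.7 CPM, a change of 3.05 ± 0.33 (adjusted p = 2.67e-05). Both genes had groups well apart. Sparc, a matricellular protein that binds collagen, was the only one of 8 members of its family to pass: it rose from 51.9, 32.1 and 31.7 CPM to 632, 470 and 521 CPM, a log2 fold change of 3.81 ± 0.23 (edgeR adjusted p = 4.88e-08). The 25 collagens tested split evenly, with 3 higher and 3 lower, and of 35 ADAMTS proteases, matrix metalloproteases and TIMPs 4 were higher and none lower.

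Secreted modulators of BMP and Wnt signalling moved in both directions. Chrdl1, which encodes a chordin-like antagonist of BMP, was at 619, 465 and 775 CPM in CTX and at 36.2, 30.2 and 34.6 CPM in GPB+. The log2 fold change was -4.2 ± 0.48 (edgeR adjusted p = 4.31e-05), with -4.37 to -4.01 over left-out libraries. Bmp1, the protease that cleaves chordin and procollagens, fell from 92.1, 96.7 and 69.3 CPM to 47.7, 37.9 and 36.3 CPM, a change of -1.08 ± 0.21 (adjusted p = 0.00494). In contrast, the BMP-binding proteins Bmper and Twsg1 rose, Bmper from 48, 47.7 and 35.8 CPM to 82.5, 130 and 109 CPM and Twsg1 from 12.4, 14.7 and 15.4 CPM to 35.5, 41.4 and 44.4 CPM. Their log2 fold changes were 1.29 ± 0.21 (edgeR adjusted p = 0.000942) and 1.52 ± 0.24 (adjusted p = 0.00079). These 4 were the called members among 22 BMP and TGF-beta ligands and antagonists tested. Of 17 Wnt ligands and secreted modulators, 3 were higher and 1 lower. Sfrp5, a secreted Frizzled-related inhibitor of Wnt, rose from 5.51, 6.37 and 2.39 CPM to 48.1, 45.4 and 28.8 CPM (3.11 ± 0.54, adjusted p = 0.00206). Dkk3, a secreted protein of the Dickkopf family, rose from 1220, 869 and 758 CPM to 2810, 3410 and 2790 CPM, a log2 fold change of 1.66 ± 0.22 (edgeR adjusted p = 0.000177). No Wnt or BMP group overlapped for these 6 genes.

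Scg5, a granin-like chaperone of neuropeptide processing, rose from 36.5, 38.2 and 38.7 CPM to 173, 218 and 180 CPM, a log2 fold change of 2.33 ± 0.17 (edgeR adjusted p = 2.93e-07). Pltp, which transfers phospholipid between lipoproteins, rose from 17.4, 27.3 and 12.4 CPM to 91.4, 127 and 107 CPM (2.52 ± 0.3, adjusted p = 5.5e-05). Both had groups without overlap, and both had calls that held with each library left out. Apoe, the main lipoprotein of astrocytes, differed by 0.29 ± 0.19 (edgeR adjusted p = 0.437). None of the 10 FGF ligands, 7 EGF family ligands or 11 chemokines tested passed in either direction.

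On the cell surface, guidance and Notch genes had the highest shares of calls. Of 20 plexins, neuropilins, Robo and netrin receptors 5 were higher and 2 lower, with a median log2 fold change of 0.99, and the number higher was 2 to 7 when a library was left out, with 2 without CTX replicate 1. Plxnc1, a semaphorin receptor, rose from 19.2, 17.2 and 17.6 CPM to 41, 39.2 and 41.7 CPM, a change of 1.18 ± 0.24 (edgeR adjusted p = 0.00557). Sema6a, a transmembrane semaphorin, rose from 54.5, 56.5 and 52.8 CPM to 146, 135 and 129 CPM (1.32 ± 0.18, adjusted p = 0.000218). The 3 libraries of each group were tight for both genes and far from overlap. Efnb2, the Eph receptor ligand ephrin-B2, rose from 10.3, 7.6 and 14.4 CPM to 33.8, 39.7 and 42.4 CPM, a log2 fold change of 1.84 ± 0.27 (edgeR adjusted p = 0.000433). Slit2, the secreted ligand of Robo receptors, was chosen after its values were seen: it was at 0.0715, 0 and 0.0837 CPM in CTX and at 8.27, 6.98 and 8.39 CPM in GPB+ (6.94 ± 0.54, adjusted p = 6.49e-07). It was low in GPB+ but at or under the level of 3 counts in every CTX library.

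Of 12 Notch receptors and ligands, 3 were higher and 2 lower. The receptor Notch3 rose from 22.3, 18.6 and 18.4 CPM to 47.7, 40.8 and 49.6 CPM, a log2 fold change of 1.22 ± 0.24 (edgeR adjusted p = 0.00557). Jag1, a canonical Notch ligand, fell from 60.7, 68.4 and 88.3 CPM to 34.9, 23 and 18.8 CPM (-1.5 ± 0.26, adjusted p = 0.00213). Dner, a Delta and Notch-like membrane protein with EGF repeats, fell from 268, 236 and 234 CPM to 57.7, 44.6 and 49.7 CPM (-2.28 ± 0.34, adjusted p = 0.000492). The groups did not overlap for receptor or ligands. Hes1, a repressor that Notch signalling induces, fell from 65.6, 42.4 and 50 CPM to 20.4, 17.1 and 19.6 CPM, a log2 fold change of -1.46 ± 0.28 (edgeR adjusted p = 0.00356). It was the only lower gene among 12 Hes, Hey and Id repressors, of which 1 was higher, and Hes5, another Notch target, differed by 0.1 ± 0.64 (edgeR adjusted p = 0.969) with overlapping groups.

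Receptors and channels for transmitters and ions differed gene by gene. Gria2, an AMPA receptor subunit, fell from 612, 827 and 998 CPM to 308, 207 and 374 CPM, a log2 fold change of -1.45 ± 0.26 (edgeR adjusted p = 0.00274). Grin3a, an NMDA receptor subunit, fell from 18, 24.6 and 24.4 CPM to 2.45, 2.09 and 2.65 CPM (-3.21 ± 0.43, adjusted p = 0.00018). Gabra2, a GABA-A receptor subunit, fell from 53, 59.3 and 69.7 CPM to 22.3, 15.6 and 18.4 CPM (-1.69 ± 0.32, adjusted p = 0.00407). No library of 1 group reached the range of the other for these subunits, and they are the 3 lower genes among 25 ionotropic glutamate, GABA and glycine receptors tested, of which 2 were higher. Adra1b, the alpha-1B adrenergic receptor through which noradrenaline raises calcium in astrocytes, was at 15.5, 18.7 and 17.5 CPM in CTX and at 0.15, 0.648 and 0.0442 CPM in GPB+. Its log2 fold change was -6.03 ± 0.74 (edgeR adjusted p = 8.56e-05), and -7.42 without GPB+ replicate 2. Vipr2, the VPAC2 receptor for vasoactive intestinal peptide, went from 2.07, 4.15 and 3.01 CPM to 41.3, 46.4 and 36.6 CPM, a change of 3.75 ± 0.37 (edgeR adjusted p = 1.03e-05). Ednrb, the endothelin B receptor, rose from 771, 920 and 865 CPM to 1680, 1870 and 1820 CPM (1.07 ± 0.14, adjusted p = 0.000137).

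Of 53 potassium channel genes, 6 were higher and 2 lower. Besides the fall of Kcnj16, the voltage-gated subunit Kcna6 rose from 12.9, 15 and 11.4 CPM to 37.3, 51.2 and 41.7 CPM, a log2 fold change of 1.73 ± 0.31 (edgeR adjusted p = 0.00253), and the leak channel Kcnk2 from 46.1, 33 and 37.2 CPM to 79.6, 81.4 and 85.9 CPM (1.09 ± 0.22, adjusted p = 0.007). Gjb6, which encodes connexin 30 of astrocyte gap junctions, fell from 2060, 1860 and 1870 CPM to 926, 756 and 880 CPM, a change of -1.18 ± 0.2 (edgeR adjusted p = 0.00189), and was the only called gene among 16 connexins, pannexins and aquaporins. Aqp4, the water channel of astrocyte endfeet, differed by -0.11 ± 0.25 (edgeR adjusted p = 0.87). The glycine transporter Slc6a9 rose from 64.9, 95.4 and 32.3 CPM to 527, 600 and 468 CPM (3.05 ± 0.3, edgeR adjusted p = 8.01e-06), and the taurine transporter Slc6a6 from 2, 2.07 and 2.6 CPM to 43.6, 75.3 and 36.9 CPM (4.53 ± 0.58, adjusted p = 0.000135). Groups did not overlap for either transporter, and they are 2 of the 3 higher genes among 41 amino acid and neurotransmitter transporters, none of which was lower. Tetraspanins gave 4 higher and none lower of 25, among them Cd9, from 380, 313 and 303 CPM to 828, 774 and 649 CPM (1.18 ± 0.17, edgeR adjusted p = 0.000313), and Tspan12, from 214, 284 and 298 CPM to 593, 746 and 819 CPM (1.44 ± 0.19, adjusted p = 0.000211). None of the 20 integrins and 19 adhesion G protein-coupled receptors passed, at a background of 6.74% in either direction.

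Among metabolic families the cholesterol pathway stood out by its direction. Of 21 genes of cholesterol synthesis tested, none was higher and 9 were lower in GPB+ (42.9%, against 2.7% of all genes), with a median log2 fold change of -0.61. The groups did not overlap in 16 of the 21, all lower in GPB+, against 13.4% of all genes lower without overlap, and the fitted change of all 21 was below 0. The number called was 5 to 7 when any library was left out, with 5 without CTX replicate 1, CTX replicate 3 or GPB+ replicate 2. Msmo1, the C4-methylsterol oxidase, was at 1670, 1740 and 1870 CPM in CTX and at 843, 786 and 972 CPM in GPB+, a log2 fold change of -1.02 ± 0.2 (edgeR adjusted p = 0.00442). Fdps, which makes farnesyl diphosphate, was at 191, 181 and 171 CPM in CTX and at 87.1, 88.1 and 102 CPM in GPB+ (-0.97 ± 0.2, adjusted p = 0.0072). For both genes every CTX library stood well above every GPB+ library, and both calls held under all 16 alternatives.

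The remaining calls of the pathway were less firm. Dhcr7, the reductase that completes cholesterol, was at 572, 390 and 351 CPM in CTX and at 204, 227 and 228 CPM in GPB+, a log2 fold change of -0.99 ± 0.21 (edgeR adjusted p = 0.00815, and 0.0524 without CTX replicate 1). Cyp51, the lanosterol demethylase, was at 340, 227 and 252 CPM in CTX and at 101, 142 and 159 CPM in GPB+, a change of -1.03 ± 0.23 (adjusted p = 0.0116, with 0.0687 without CTX replicate 1 and 0.0544 without GPB+ replicate 1). In neither gene did the groups overlap. Insig1, which holds the sterol sensor in the endoplasmic reticulum and is itself induced when sterols are low, fell in the same direction from 612, 737 and 627 CPM to 373, 303 and 333 CPM (-0.97 ± 0.17, edgeR adjusted p = 0.00232). In GCPB+, the other EGFR-negative V-SVZ population, mean levels lay between those of GPB+ and CTX for Msmo1 (1290 CPM), Fdps (125 CPM), Dhcr7 (278 CPM) and Cyp51 (181 CPM), with edgeR adjusted p of 0.645 to 0.762 for GPB+ against GCPB+.

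**Figure D4:**
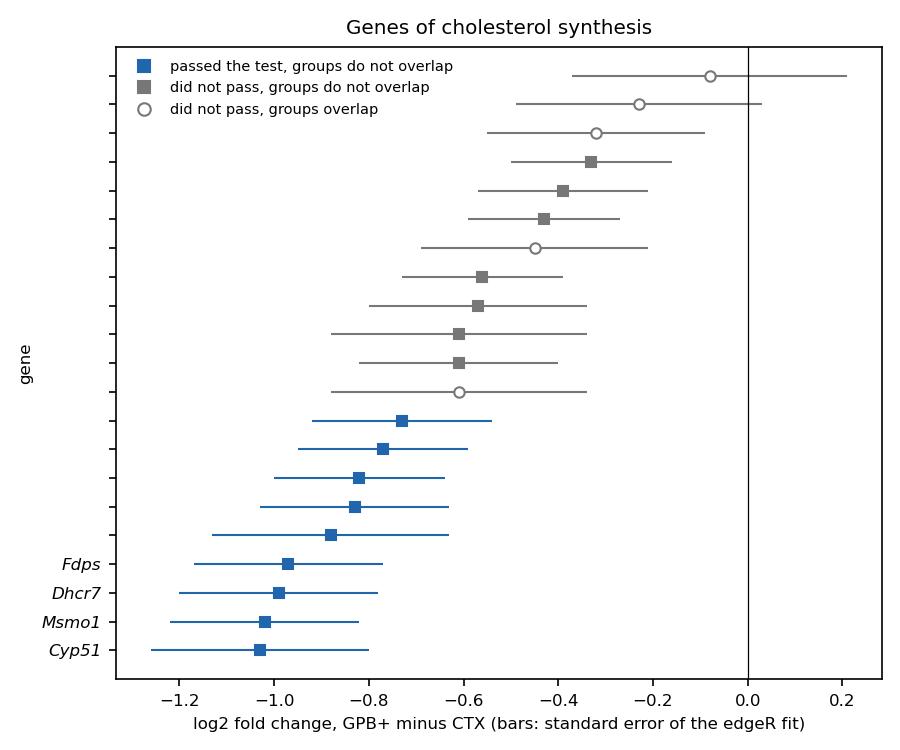
Log2 fold change, GPB+ minus CTX, of the 21 genes of cholesterol synthesis tested, ordered by value and labelled where described in the text, with bars for the standard error of the edgeR fit. Blue squares are the 9 genes that passed, grey squares are genes that did not pass but whose 3 and 3 libraries do not overlap, and open circles are genes whose groups overlap. Every value lies below 0.

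The promoters of the pathway were searched for 5 short motifs on both strands, in RefSeq windows of 300 bases around each annotated start (GRCm38.p6). CCAAT, the box bound by nuclear factor Y, was found for 14 of the 15 tested pathway genes that had an entry. It was found for 5 of the 6 called ones among these, so it was not particular to called genes. Of all 27025 genes with an entry, tested or not, 41.1% had it. TTGGC was found for 13 of 15 and for 50.4% of all genes, and a CCAAT match on the other strand can overlap it. CACGTG was found for 3 of 15, against 8.09% of all genes. CAGCTG was found for 3 of 15, against 18.3% of all genes, and TATAAA for none, against 15.7%. The windows of 3 called genes are shown with each CCAAT match, on either strand, in capitals, 5′ to 3′ on the strand of the gene: they hold 3 matches for Msmo1 (chr8:64733529-64733828, minus strand), 2 for Dhcr7 (chr7:143829964-143830263, plus strand, 1 of 3 annotated starts) and 1 for Cyp51 (chr5:4104648-4104947, minus strand). A match describes these bases and is neither a shown binding site nor a cause of the change.
Msmo1: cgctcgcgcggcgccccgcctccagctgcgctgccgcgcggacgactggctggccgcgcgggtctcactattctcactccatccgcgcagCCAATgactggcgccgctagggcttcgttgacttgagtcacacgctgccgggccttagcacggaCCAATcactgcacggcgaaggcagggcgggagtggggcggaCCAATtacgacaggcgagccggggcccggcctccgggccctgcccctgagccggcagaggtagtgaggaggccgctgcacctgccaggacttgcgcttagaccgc
Dhcr7: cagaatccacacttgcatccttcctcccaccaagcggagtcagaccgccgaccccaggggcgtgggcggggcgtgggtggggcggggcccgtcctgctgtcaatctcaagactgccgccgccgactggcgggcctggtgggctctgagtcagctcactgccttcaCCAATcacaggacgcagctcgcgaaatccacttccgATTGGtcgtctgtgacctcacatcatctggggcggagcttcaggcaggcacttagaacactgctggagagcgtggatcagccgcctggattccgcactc
Cyp51: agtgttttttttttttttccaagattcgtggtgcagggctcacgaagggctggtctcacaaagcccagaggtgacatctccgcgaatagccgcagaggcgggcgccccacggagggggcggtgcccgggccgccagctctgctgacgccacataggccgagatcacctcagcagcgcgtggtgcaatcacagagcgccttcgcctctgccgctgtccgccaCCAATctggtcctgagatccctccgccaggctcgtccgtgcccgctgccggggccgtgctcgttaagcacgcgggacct

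Glycolysis and lactate genes were also more often lower: of 38 tested, 6 were lower (15.8%) and 1 higher (2.63%), with 2 to 6 lower when a library was left out and 2 without GPB+ replicate 3. Ldha, the lactate dehydrogenase subunit that favours lactate, fell from 627, 526 and 516 CPM to 199, 189 and 194 CPM, a log2 fold change of -1.52 ± 0.16 (edgeR adjusted p = 1.68e-05). Tpi1, triosephosphate isomerase, fell from 416, 378 and 357 CPM to 237, 237 and 190 CPM (-0.79 ± 0.16, adjusted p = 0.00536). The monocarboxylate transporter Slc16a1, a lactate carrier, fell from 128, 128 and 141 CPM to 72.6, 68.6 and 75 CPM, a log2 fold change of -0.88 ± 0.19 (edgeR adjusted p = 0.00993). All 3 had groups without overlap. Pygl, the liver form of glycogen phosphorylase, was the exception and rose from 7.44, 8.6 and 5.74 CPM to 35.7, 68.6 and 43.5 CPM (2.77 ± 0.36, edgeR adjusted p = 0.000146).

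Lipid enzymes changed in both directions. Scd2, a stearoyl-CoA desaturase, rose from 1160, 1170 and 1210 CPM to 2690, 3410 and 3170 CPM (log2 fold change of 1.39 ± 0.16, edgeR adjusted p = 4.87e-05). Elovl6, which elongates saturated fatty acids, fell from 113, 76.2 and 121 CPM to 35.3, 46.2 and 57.7 CPM (-1.16 ± 0.22, adjusted p = 0.00424). The groups were apart for both. Of 58 sphingolipid and glycosphingolipid enzymes, 5 were higher and 4 lower: Smpd3, a neutral sphingomyelinase, rose from 41.2, 40.5 and 28.4 CPM to 204, 224 and 158 CPM (2.41 ± 0.29, edgeR adjusted p = 6.51e-05), whereas St6galnac5, a ganglioside sialyltransferase, fell from 297, 233 and 302 CPM to 50.2, 40.6 and 31.9 CPM (-2.76 ± 0.42, adjusted p = 0.000598).

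Genes that handle retinoids and thyroid hormone were called in both directions, 4 higher and 5 lower of 32. Dhrs3, a reductase that returns retinal to retinol, fell from 1110, 1190 and 742 CPM to 441, 371 and 269 CPM (log2 fold change of -1.5 ± 0.26, edgeR adjusted p = 0.00213). Its groups did not overlap. Car2, the cytosolic carbonic anhydrase, fell from 1910, 1860 and 1700 CPM to 370, 410 and 285 CPM, a log2 fold change of -2.36 ± 0.45 (edgeR adjusted p = 0.00412). Among antioxidant genes, Gsr, which regenerates reduced glutathione, fell from 91, 55.7 and 86.1 CPM to 19.9, 18.9 and 21.6 CPM (-1.95 ± 0.27, edgeR adjusted p = 0.000297), while Mgst1, a microsomal glutathione transferase, rose from 111, 96.8 and 120 CPM to 344, 274 and 298 CPM (1.48 ± 0.15, adjusted p = 1.31e-05).

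Large housekeeping families showed few calls. Of 86 nuclear genes of oxidative phosphorylation 1 was higher and none lower, of 82 cytosolic ribosomal protein genes 1 was higher and none lower, and of 43 proteasome subunits none passed, at backgrounds of 4.04% and 2.7%. Of 76 mitochondrial ribosomal protein genes 1 was lower and none higher, with a median log2 fold change of -0.27 and 20 members whose GPB+ libraries all lay below all CTX libraries. Oxidative phosphorylation had a median of -0.25 and 21 such members. Over all genes tested, 13.4% lay below in this way.

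Transcription factors tied to position in the forebrain were the regulatory genes with the largest changes. The family named for Dlx, Gsx, Nkx and Lhx factors also held Six3, Vax and LIM-only (Lmo) genes. Of its 17 tested members, 7 were higher and none lower, with a median log2 fold change of 2.41. The number higher was 5 to 7 when a library was left out and 4 in limma on log2(FPKM + 1). The higher members were Dlx, Gsx, Vax and Lmo genes and Six3, and none was an Nkx or Lhx gene. Six3, a homeobox factor of the rostral and ventral forebrain, was at 0.143, 0.0768 and 0.335 CPM in CTX and at 50.6, 31.3 and 30.7 CPM in GPB+. Its log2 fold change was 7.45 ± 0.45 (edgeR adjusted p = 4.88e-08), and 8.32 without CTX replicate 3. Six3os1 overlaps Six3 by 4789 bases on the opposite strand of chromosome 17 and rose from 0.286, 0.0768 and 0.0419 CPM to 52.1, 56.5 and 71.5 CPM (8.89 ± 0.48, edgeR adjusted p = 3.29e-08; 9.95 without CTX replicate 1 and 8.3 without CTX replicate 3). The library kit does not mark strand, so reads from these genes cannot be told apart where they overlap. Both had no overlap between groups.

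The ventral factors Dlx2 and Gsx2 were at low levels in GPB+ and were named after their values were seen. Dlx2, a factor of ventral progenitors and interneurons, had no count in CTX and was at 4.46, 3.38 and 2.87 CPM in GPB+. Against the level of 3 counts per CTX library, it was at least 18.8-fold higher in GPB+, a call (edgeR adjusted p = 0.00255) that was lost in limma on log2(FPKM + 1) (adjusted p = 0.112). Gsx2, a factor of the lateral ganglionic eminence, was at 0.143, 0 and 0 CPM in CTX and at 4.61, 3.46 and 1.55 CPM in GPB+, with a log2 fold change of 6.1 ± 0.81 (edgeR adjusted p = 0.000181), 9.05 without CTX replicate 1 and 5.32 without CTX replicate 3. The mean levels in the EGFR-positive populations were far higher for Dlx2 in GCEPB- (47.5 CPM) and for Gsx2 in GCEPB- (20.8 CPM) than in GPB+. Foxp1, a forkhead factor of the striatum, rose from 5.51, 2.69 and 5.99 CPM to 42.2, 25.9 and 42.2 CPM (2.95 ± 0.31, edgeR adjusted p = 1.99e-05), with groups well apart.

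The 4 Zic genes that passed all fell, and they are the only called genes among 15 nuclear factor I, GLI and ZIC factors, with 2 to 4 called when a library was left out and 2 without GPB+ replicate 3. Zic2 was at 14.9, 14.1 and 14.5 CPM in CTX and at 0.2, 0.288 and 0.133 CPM in GPB+, a log2 fold change of -6.13 ± 1.02 (edgeR adjusted p = 0.0014). Zic4, named after its values were seen, was at 9.08, 0.768 and 5.61 CPM in CTX with no count in GPB+ (edgeR adjusted p = 0.0116, and 0.0456 without CTX replicate 1). Zic5 fell from 16.8, 20.3 and 13.4 CPM to 6.21, 3.17 and 4.11 CPM, a change of -1.9 ± 0.44 (edgeR adjusted p = 0.0147) that did not pass without CTX replicate 2 (0.0605), GPB+ replicate 2 (0.0672) or GPB+ replicate 3 (0.0578). The groups did not overlap for these 3. The genes form 2 divergent or adjacent pairs: Zic1 and Zic4 overlap by 138 bases on chromosome 9, and Zic2 and Zic5 lie 9.7 kb apart on chromosome 14 (GRCm38.p6).

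Of 18 pallial homeobox and T-box factors tested, 3 were lower (16.7%) and 1 higher (5.56%), with a median log2 fold change of -0.19. Without overlap, 7 lay lower and 5 higher in GPB+, against 13.4% and 12% of all genes. Dmrta2, a dorsal telencephalic factor, fell from 10.2, 12.3 and 11.4 CPM to 0.301, 0 and 0.265 CPM, a log2 fold change of -5.77 ± 0.75 (edgeR adjusted p = 0.000157). Otx1, a cortical homeobox factor, fell from 68.6, 70.3 and 57.4 CPM to 37, 19.8 and 21.1 CPM (-1.33 ± 0.28, adjusted p = 0.00854). Emx2, a factor that patterns the cortex, fell from 55.1, 50.4 and 69.7 CPM to 19.8, 16.6 and 26.9 CPM, a change of -1.47 ± 0.32 (edgeR adjusted p = 0.0109) that did not pass without CTX replicate 3 (0.0577) or GPB+ replicate 2 (0.056). None of these had overlapping groups. Pax6 differed by a log2 fold change of -0.47 ± 0.18 (edgeR adjusted p = 0.14) and Lhx2 by -0.75 ± 0.24 (adjusted p = 0.0691).

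The Olig factors, which are adjacent on chromosome 16 with 41.1 kb between them, were both lower in GPB+. Olig2 fell from 18.5, 16.6 and 21.2 CPM to 2, 0.288 and 0.839 CPM, a log2 fold change of -4.12 ± 0.63 (edgeR adjusted p = 0.000639), and -4.96 without GPB+ replicate 1. Olig1 fell from 237, 171 and 156 CPM to 36.6, 20.7 and 43.8 CPM (-2.48 ± 0.52, adjusted p = 0.0079). Groups did not overlap for either. Both are also markers of oligodendrocyte progenitors. Of 18 markers of those cells, these were the only 2 called, and the summed level of the list was 2010 to 2360 CPM in CTX and 1600 to 2400 CPM in GPB+. The 3 most abundant made up 94.9 to 98.6% of it, and the rest came to 36.6 to 110 CPM in CTX and 27.9 to 61 CPM in GPB+. Pdgfra and Cspg4, which define these progenitors, differed by -0.01 (adjusted p = 1) and -0.04 (adjusted p = 0.989) in edgeR log2 fold change.

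Of 35 imprinted genes tested 10 were higher and none lower in GPB+, with a median log2 fold change of 0.55 and 7 to 10 higher when a library was left out. Several of the 10, among them Meg3, Rian, Dlk1 and Dio3, lie in 1 cluster on chromosome 12, so they are not 10 separate loci. Meg3, a maternally expressed noncoding RNA (chr12:109540996-109571729, GRCm38.p6), was at 8.8, 3.53 and 1.21 CPM in CTX and at 451, 442 and 768 CPM in GPB+. The log2 fold change was 6.98 ± 0.55 (edgeR adjusted p = 6.49e-07), and 7.95 without CTX replicate 1. Across the other V-SVZ populations its mean was 339 CPM in GCPB+, 85.7 CPM in GCEPB+ and 10.3 CPM in GCEPB-. Meg3 belongs to the Dlk1-Dio3 cluster, which spans 828613 bases of chromosome 12 from Dlk1 to Dio3. Dlk1, which encodes a Notch-like ligand, lies 77.7 kb from Meg3 and was named after its values were seen. It was at 0.0715, 0.0768 and 0 CPM in CTX and at 5.91, 7.71 and 7.02 CPM in GPB+ (7.17 ± 1.13, edgeR adjusted p = 0.000919, and 6.42 without CTX replicate 3). Rian, a noncoding RNA of the cluster, rose from 0.0715, 0.461 and 0 CPM to 12.3, 15.8 and 22.8 CPM (6.75 ± 0.86, adjusted p = 0.000127; 8.99 without CTX replicate 2 and 5.98 without CTX replicate 3). The groups did not overlap for these 3 genes. The counts do not tell the parental alleles apart.

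Imprinted genes elsewhere in the genome also rose. Ndn, which encodes the growth suppressor necdin, went from 30, 16.6 and 32.2 CPM to 138, 155 and 146 CPM, a log2 fold change of 2.47 ± 0.25 (edgeR adjusted p = 9.76e-06). Peg3, a zinc finger factor, went from 34.7, 56 and 48.4 CPM to 86.9, 129 and 108 CPM (1.22 ± 0.23, adjusted p = 0.00367). Grb10, an adaptor that restrains growth factor receptors, was chosen after its values were seen: it had no count in CTX and was at 3.91, 4.46 and 4.15 CPM in GPB+, at least 21.9-fold higher against 3 counts per CTX library (edgeR adjusted p = 0.000234). Groups stood apart for all 3, and these calls held under every alternative. The other 4 called genes include further members of the Dlk1-Dio3 cluster. Of these, Dio3, named after its values were seen, had no count in CTX and a mean of 1.67 CPM in GPB+. Its call was lost without any 1 of the CTX libraries (edgeR adjusted p of 0.103, 0.0946 and 0.125). It was also lost without GPB+ replicate 2 (0.0825) or replicate 3 (0.0725) and in limma on log2(FPKM + 1) (0.125). Among the 4, Mest, named after its values were seen, had the highest level, at 7.48 CPM on average in GPB+. Snrpn, at 0.319 CPM on average in GPB+ and 0 in CTX, did not pass without CTX replicate 3 (adjusted p = 0.0667) and had a log2 fold change of -0.08 in limma on log2(FPKM + 1).

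**Figure D5:**
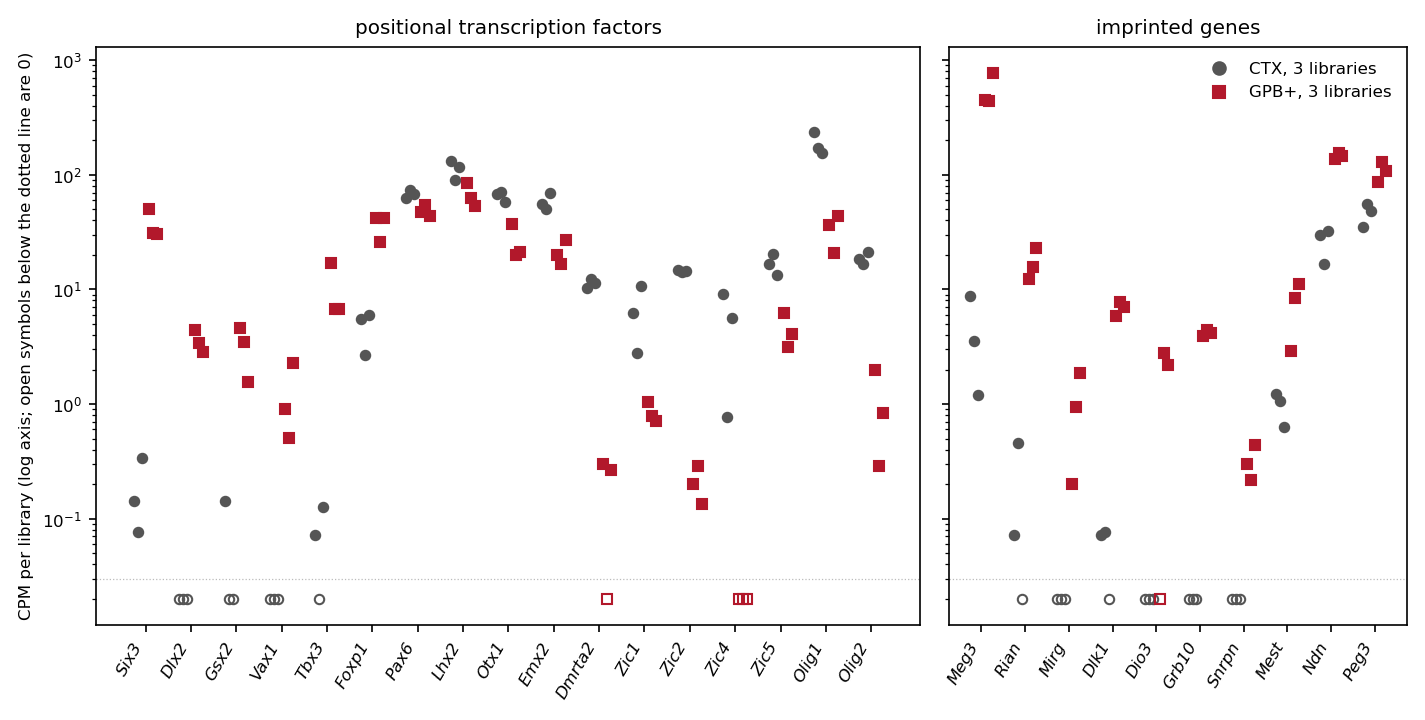
Levels in CPM (log axis) of positional transcription factors, at the left, and of the 10 imprinted genes called higher, at the right, in each library. Grey circles are the 3 CTX libraries, red squares the 3 GPB+ libraries, and open symbols below the dotted line are libraries with 0 counts. Six3, Dlx2 and Foxp1 are higher in GPB+, and the Zic and Olig genes are higher in CTX.

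Immediate early genes were more often lower in GPB+, but 1 CTX library stood apart in some of them. Of 29 tested, 8 were lower (27.6%) and 1 higher, with a median log2 fold change of -0.9, and 2 to 5 were lower when a library was left out, with 2 without GPB+ replicate 2. Nr4a1, an orphan nuclear receptor induced within minutes of stimulation, was at 35.3, 325 and 53.9 CPM in CTX replicates 1, 2 and 3 and at 16.3, 15.8 and 35.3 CPM in GPB+. CTX replicate 2 was far above the others, and the groups overlapped. The log2 fold change was -2.61 ± 0.66 (edgeR adjusted p = 0.0241), and -0.99 (adjusted p = 0.295) without CTX replicate 2. It also did not pass without GPB+ replicate 1 (0.0838) or GPB+ replicate 2 (0.0977). Ier2, another early gene, fell without such a library, from 12.2, 7.22 and 11 CPM to 2.66, 2.3 and 1.55 CPM (-2.23 ± 0.35, edgeR adjusted p = 0.000801). Etv4, an ETS factor induced by FGF signalling, fell from 186, 170 and 134 CPM to 44.1, 28.9 and 39.9 CPM, a change of -2.12 ± 0.29 (edgeR adjusted p = 0.000221). Whether the state of 1 CTX sample contributed to the list's count was not tested beyond these values.

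Of 26 cyclins, CDKs and E2F factors, 4 were higher (15.4%) and 2 lower (7.69%) in GPB+, with a median log2 fold change of 0.09. The 2 lower genes were Ccnd1 and E2f1. Ccnd1, the G1 cyclin D1, fell from 63.5, 41.1 and 45.7 CPM to 5.01, 5.9 and 4.11 CPM, a log2 fold change of -3.33 ± 0.43 (edgeR adjusted p = 0.000146). E2f1, an activator of S phase genes, fell from 19.3, 15 and 17.8 CPM to 1.05, 2.09 and 3.36 CPM (-3 ± 0.42, adjusted p = 0.000301). Both had groups without overlap. Of 89 replication and mitosis genes, 11 were higher (12.4%) and 1 lower, with 5 to 12 higher when a library was left out (5 without CTX replicate 3), 4 when the replicate number was blocked and 3 in limma on log2(FPKM + 1). Mcm6, a subunit of the replicative helicase, was at 1.5, 2.53 and 1.38 CPM in CTX and at 13.6, 8.79 and 14.6 CPM in GPB+ (2.81 ± 0.28, edgeR adjusted p = 1.09e-05). This level was far below the mean of 313 CPM in GCEPB+ and 531 CPM in GCEPB-. Of 19 markers of activated and transit-amplifying progenitors, 10 were higher (52.6%) and 2 lower (10.5%), and their summed level was 670 to 808 CPM in CTX and 573 to 742 CPM in GPB+. The 3 most abundant members made up 66.1 to 73.9% of that sum, and the rest came to 185 to 211 CPM in CTX and 194 to 213 CPM in GPB+.

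Markers of other cell types were read beside these results. Of 27 ependymal and motile cilia genes 6 were higher (22.2%, against 4.04% of all genes) and none lower in GPB+, with a median log2 fold change of 2.11. Without overlap, 14 lay higher, against 12% of all genes. The summed level was 53.6 to 61.3 CPM in CTX and 109 to 150 CPM in GPB+. Without the 3 most abundant members it was 11.6 to 16.9 CPM in CTX and 38.2 to 75.7 CPM in GPB+. Foxj1, which drives motile cilia, was at 1.93, 0.537 and 1.13 CPM in CTX and at 3.91, 6.12 and 5.57 CPM in GPB+ (edgeR adjusted p = 0.0847). The count of this list was 1 to 6 when a library was left out, with 1 without CTX replicate 1. Of 20 neuroblast markers 6 were higher (30%) and 2 lower (10%), with a summed level of 867 to 1780 CPM in CTX and 536 to 1020 CPM in GPB+. The 3 most abundant of them made up 88.2 to 97.9% of the sum, and without them it was 27.9 to 40.8 CPM in CTX and 47.4 to 96.8 CPM in GPB+. Dcx, which defines neuroblasts, was at 0.215 to 0.461 CPM in CTX and at 0.551 to 1.24 CPM in GPB+ (edgeR adjusted p = 0.385). These 2 genes, and Pdgfra and Cspg4 above, were named as defining markers after their values were seen. Of 18 markers of mature oligodendrocytes none passed, 2 lay higher in GPB+ without overlap (against 12% of all genes), and 3 passed as higher when the replicate number was blocked. Their summed level was 265 to 838 CPM in CTX and 654 to 1100 CPM in GPB+. Of 11 microglial, 16 endothelial and 5 choroid plexus markers tested none passed. The summed level was 82.6 to 100 CPM in CTX and 66.8 to 90.9 CPM in GPB+ for microglia, 849 to 1030 and 770 to 830 CPM for endothelial cells (2.15 to 36.8 and 0.401 to 7.05 CPM without the 3 most abundant), and 3.43 to 17.4 and 4.03 to 8.13 CPM for choroid plexus. Tyrobp, Trem2 and Mrc1 of the microglial list had no count in any of the 6 libraries. Among 10 markers of pericytes and smooth muscle Rgs5 was lower in GPB+ (edgeR log2 fold change of -3.28 ± 0.74, adjusted p = 0.0122, and 0.0541 without GPB+ replicate 2) and Notch3 was higher. Of 8 fibroblast markers tested 1 was higher. The part that cells of these types had in the results above was not tested.

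GCPB+ cells differ from GPB+ cells in the sort by the presence of CD133. A contrast of the 2 in the same fit compares no CTX library, though CTX libraries enter its filter, scaling factors and estimate of spread. It called 1 gene higher (0.00613% of those tested) and 4 lower (0.0245%) in GPB+, or 0.0307% in either direction, and 0 genes in either direction without GPB+ replicate 3. The 1 gene higher was Pdgfra, a member of the oligodendrocyte progenitor and fibroblast lists, at 4.06, 6.05 and 17.8 CPM in GPB+. No gene was called higher without GPB+ replicate 2 or without any 1 of the GCPB+ libraries. Prom1, the gene of CD133, was lower in GPB+, at 26.7, 34.6 and 24 CPM against a mean of 153 CPM in GCPB+, a log2 fold change of -2.43 (edgeR adjusted p = 0.00611), 0.0542 without GPB+ replicate 3 and 0.0023 with the replicate number as a block. With that block 2 genes were higher and 3 lower. The 6 GPB+ and GCPB+ libraries fitted alone, without CTX, gave 1 higher and 1 lower. None of the genes named above as higher in GPB+ than CTX was called between GPB+ and GCPB+. Over all genes, 3 were called in both comparisons, all lower in GPB+ than in CTX and than in GCPB+. For Thbs4, Sparc and Bgn the means in GCPB+ were 125, 657 and 38.7 CPM, with adjusted p of 0.965, 0.808 and 0.949, and for Igfbp2 and Chrdl1 they were 0.363 and 35.3 CPM, with adjusted p of 0.78 and 0.988. Crym, at 182 CPM on average in GCPB+, differed by a log2 fold change of 1.79 with an edgeR adjusted p of 0.498.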

How the data were processed

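RNA of sorted cells was extracted, amplified with an oligo(dT) kit that does not mark strand and sequenced as paired reads of 100 bases, per the labels' protocols. The deposited tables hold whole-number counts per gene and FPKM values, which correct for transcript length and depth. Per the submitters' processing notes the tools included cutadapt, TopHat2 2.1, HTSeq and Cufflinks, and the build was mm10; the roles, the annotation and the strand setting are not given in the sources used here. From the deposited counts, 28 rows that name no gene (27 of them dates, 0.184 to 0.323% of counts) were left out. The 15 libraries of 5 groups were fitted together in edgeR 4.0.16 (TMM factors, filterByExpr, quasi-likelihood test), with no covariate and a threshold of 0.05 on the adjusted p. SE is the log2 fold change divided by the square root of F. Alternatives used DESeq2 1.42.0 on the counts and limma 3.58.1 on log2(FPKM + 1) and log2(FPKM + 0.1), with FPKM as deposited by the authors and genes of at least 0.5 FPKM in 3 libraries.

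Named genes were the sorting genes, the 3 proposed markers, the 10 largest rises and falls among called genes without overlap and with at least 20 CPM in the higher group, in each family up to 5 called members per direction of at least 10 CPM and the 3 most abundant, and the 4 most abundant of each cell type list. The members and lists were chosen with earlier results of these data known. On simulated counts of GPB+ and CTX (15320 genes), the fit recovered 36% of changes of 1 and 92% of changes of 2 on the log2 scale. These changes, 100 of each size, were planted only in genes with a mean of at least 5 CPM. The simulated spread depended on the level of a gene alone, and no other difference between groups was planted. Recovery for genes below 5 CPM was not tested. Libraries of the same number deviated together in GPB+ and GCPB+ (correlations 0.275, 0.273 and 0.342 over 11261 genes), so the numbers were taken to pair these groups, from the data and not the labels. Floors of 3 counts cover counting error only, since reads carried no molecular identifiers. Some genes are not reported here.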

Additional observations from a re-analysis of the deposited data

How the results depend on the processing

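Of 99 named genes that passed the threshold between GPB+ and CTX, 84 kept direction and call under every one of the alternatives that tested them, and Snrpn alone changed direction (-0.08 in limma on log2(FPKM + 1), with and without the filter). The counts of all genes moved more. DESeq2 called 975 higher and 758 lower, limma on log2(FPKM + 1) 519 and 711, on log2(FPKM + 0.1) 570 and 572, and without the filter 438 and 602. The 6 libraries alone gave 553 and 521. With 1 library left out, 368 to 603 genes were higher and 217 to 291 lower. Same-numbered GPB+ and CTX libraries had correlated deviations of 0.0787, 0.118 and 0.296, and GPB+ replicate 2 was closer to CTX replicate 1 (0.188) than to its own number, so the numbers were not taken as pairs. The fit with the replicate block called 676 higher and 659 lower. Between GPB+ and GCPB+, alternatives chosen after seeing the data gave 15 higher and 24 lower in DESeq2, 2 and 5 without the filter, 1 and 1 in the 6 libraries alone, 2 and 3 with the replicate block, and 0 to 1 higher and 0 to 2 lower with 1 library left out. Genes near no change turned sign without passing. Egfr was at -0.13 in limma on log2(FPKM + 1), with and without the filter, at -0.14 on log2(FPKM + 0.1), and between -0.05 and 0.14 with 1 library left out, including -0.02 without GPB+ replicate 2. Pdgfra was at 0.02 with a minimum of 5 CPM and in limma on log2(FPKM + 1), 0.14 on log2(FPKM + 0.1), 0.25 with the block, and between -0.87 and 1.47 with 1 library left out. Slc1a3 was at 0.02 with a minimum of 5 CPM and between -0.09 and 0.07 with 1 library left out, and Cspg4 between -0.49 and 0.81. Hes5 was at -0.01 in limma on log2(FPKM + 1), with and without the filter, and on log2(FPKM + 0.1), and between -0.61 and 0.61 with 1 library left out. The causes were not tested. At 3 libraries a group, small changes and genes near the level of 3 counts are the least certain.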

Other observations

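Of 84 DNA methylation and histone-modifying enzymes tested, 6 were higher and none lower in GPB+, 7.14% in either direction against 6.74% of all genes, with a median log2 fold change of 0.12. Hdac4, a class II histone deacetylase, was at 86.3, 82.8 and 107 CPM in CTX and at 274, 165 and 244 CPM in GPB+, a change of 1.3 ± 0.21 (edgeR adjusted p = 0.00104) with groups apart. Of 29 Frizzled and LRP receptors 2 were higher (6.9%) and 4 lower (13.8%), and the lower ones include lipoprotein receptors. Fzd5, a Wnt receptor, was at 4.15, 8.68 and 4.65 CPM in CTX and at 44.7, 56.8 and 33.1 CPM in GPB+ (2.95 ± 0.34, edgeR adjusted p = 4.89e-05). Vldlr, a receptor of reelin and lipoproteins, was at 65.9, 40.4 and 60.7 CPM in CTX and at 5.51, 3.96 and 3.98 CPM in GPB+ (-3.63 ± 0.68, edgeR adjusted p = 0.00356). Lef1, a transcription factor of the Wnt pathway, was at 19.7, 11.7 and 16.4 CPM in CTX and at 2.35, 1.51 and 2.12 CPM in GPB+ (-2.99 ± 0.48, edgeR adjusted p = 0.000942). The groups did not overlap for these receptors or for Lef1. Tgif1, a TALE homeobox repressor, was at 2.36, 3.07 and 0.251 CPM in CTX and at 13.3, 14.4 and 12.9 CPM in GPB+ (2.9 ± 0.57, edgeR adjusted p = 0.00505), and 5 of 18 TALE, Hox and POU factors were higher with none lower.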
